A study of Homo sapiens with 4 samples.

Results

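The S100 genes encode small calcium-binding proteins, and 10 of them were followed here in 2 human lung cancer cell lines treated for 48 h with an siRNA that targets CDH3. The 10 genes were S100A2, S100A4, S100A6, S100A8, S100A9, S100A10, S100A11, S100A13, S100A14 and S100P, each found by its gene symbol as 1 row among the 58174 genes of the deposited table. The 4 groups held 1 library each. They were HCC827 cells given siCDH3, HCC827 cells given the control siRNA (siCTR), H1299 cells given siCDH3 and H1299 cells given siCTR, and all cells had thus been transfected for the same time. HCC827 was derived from an adenocarcinoma of the lung and carries an activating EGFR deletion, and H1299 was derived from a lymph node metastasis of a non-small cell carcinoma. CDH3 encodes P-cadherin, an adhesion protein of epithelial junctions. The silencing was transient, each line is a single established line, and no sequence of either siRNA was used here.

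S100 proteins carry a pair of EF-hand calcium-binding loops and mostly act as dimers. When calcium binds, a hydrophobic face opens and holds a partner protein, often an annexin or a cytoskeletal protein. Several are also released from cells and bind receptors such as RAGE (encoded by AGER) and TLR4. Many genes of the family lie side by side in the epidermal differentiation region of chromosome 1, and carcinomas of the lung and other organs often express some of them strongly.

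The upstream sequences of 6 of the genes are shown, chosen from those that differed between the lines as described further on. Others that differed, S100A8 among them, are not shown. RefSeq (GRCh38.p14) holds an entry for all 10 genes, and each sequence is the 250 bases before the annotated transcript start, 5′ to 3′ on the strand of the gene. S100A9 (chr1:153357604-153357853, plus strand), S100P (chr4:6693628-6693877, plus strand), S100A14 (chr1:153616326-153616575, minus strand) and S100A6 (chr1:153535992-153536241, minus strand) were far higher in HCC827. S100A4 (chr1:153545807-153546056, minus strand) and S100A10 (chr1:151993860-151994109, minus strand) were higher in H1299. Capitals mark the TATA-like motif TATAAN and the E-box CACCTG, each searched on both strands, so that the E-box on the other strand reads CAGGTG.
S100A9: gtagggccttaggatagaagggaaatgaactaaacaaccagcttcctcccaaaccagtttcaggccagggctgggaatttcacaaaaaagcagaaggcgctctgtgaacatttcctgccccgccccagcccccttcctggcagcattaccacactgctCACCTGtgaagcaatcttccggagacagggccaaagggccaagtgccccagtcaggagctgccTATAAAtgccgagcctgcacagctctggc
S100P: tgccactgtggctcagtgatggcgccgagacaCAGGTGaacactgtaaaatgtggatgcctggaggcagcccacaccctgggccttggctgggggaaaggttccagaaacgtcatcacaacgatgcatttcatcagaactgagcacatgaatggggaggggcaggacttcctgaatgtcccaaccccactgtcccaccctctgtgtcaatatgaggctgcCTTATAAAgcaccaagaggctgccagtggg
S100A14: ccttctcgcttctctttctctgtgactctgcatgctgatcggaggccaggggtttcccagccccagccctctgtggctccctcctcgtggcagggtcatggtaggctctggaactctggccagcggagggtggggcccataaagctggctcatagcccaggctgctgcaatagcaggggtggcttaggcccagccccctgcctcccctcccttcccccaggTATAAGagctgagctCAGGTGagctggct
S100A6: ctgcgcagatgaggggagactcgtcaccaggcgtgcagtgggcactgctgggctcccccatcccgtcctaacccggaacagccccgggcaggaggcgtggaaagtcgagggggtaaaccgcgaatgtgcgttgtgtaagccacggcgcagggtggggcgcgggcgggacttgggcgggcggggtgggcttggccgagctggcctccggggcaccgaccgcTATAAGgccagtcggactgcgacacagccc
S100A4: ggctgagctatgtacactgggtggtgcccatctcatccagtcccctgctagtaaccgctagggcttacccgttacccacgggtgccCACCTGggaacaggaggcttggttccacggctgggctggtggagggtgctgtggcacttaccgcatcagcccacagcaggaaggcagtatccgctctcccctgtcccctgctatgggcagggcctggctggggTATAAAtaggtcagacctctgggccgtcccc
S100A10: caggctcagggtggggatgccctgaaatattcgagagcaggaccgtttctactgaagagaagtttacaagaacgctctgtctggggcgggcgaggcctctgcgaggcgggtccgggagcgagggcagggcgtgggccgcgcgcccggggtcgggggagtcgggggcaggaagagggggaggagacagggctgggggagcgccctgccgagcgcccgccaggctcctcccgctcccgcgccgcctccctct
TATAAN was found in S100A9, S100P, S100A14, S100A6 and S100A4, with its last base between 22 and 25 bases short of the start, where a TATA box lies in many genes, and it was not found in the S100A10 window. In S100P it was also read on the other strand at an overlapping position. Over all 10 genes, 8 of 15 windows held TATAAN, against 18.9% of the 35116 windows of all genes. CACCTG was found in 8 of the 15 windows, against 17.5% of all windows, and among the sequences shown it was in S100A9, S100P, S100A14 and S100A4. The AP-1 motif TGANTCA was in 1 of the 15 windows, one of S100A2, against 6.57% of all windows. The S100A6 and S100A10 windows each held 24 CpG dinucleotides, those of S100A9, S100P and S100A14 held 4 each and that of S100A4 held 7, where the median of all windows was 11. Windows of 1 gene can overlap, and the same S100A8 sites were counted in more than 1 window, so the window counts overstate the separate sites. By gene, TATAAN was found for 7 of the 10 and CACCTG for 6. The motifs were chosen after the sequences had been read, and a match describes letters and not a bound site.

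The TPM columns summed to between 999859 and 999943, and TPM keeps no depth, so that the precision at low values is unknown. The targeted gene was lower with siCDH3 in both lines. CDH3 had a TPM of 78.8 in HCC827 siCDH3 and 172.7 in HCC827 siCTR, and 0.169 in H1299 siCDH3 and 1.21 in H1299 siCTR. H1299 thus held little CDH3 to silence. NKX2-1 and NAPSA, which mark lung adenocarcinoma cells, had 39.0 and 131 TPM in HCC827 siCDH3 and 19.7 and 131 TPM in HCC827 siCTR. In H1299 NKX2-1 had 0.145 TPM with siCDH3 and 0.206 with siCTR, and NAPSA 1.61 and 0.858, so both were near absent there. Of the 8 lung lineage markers 3 reached 5 TPM in each HCC827 library and 0 in either H1299 library. SFTPB had 2.29 and 2.24 TPM in the siCDH3 and siCTR libraries of HCC827, and SCGB1A1 was listed at 0 in all 4 libraries. Of 12 markers of myeloid cells and neutrophils, which make much S100A8 and S100A9, only CD68 reached 5 TPM in any library, and the list summed to 143.6 and 123.1 TPM in the siCDH3 and siCTR libraries of HCC827 and to 123.5 and 124.1 TPM in those of H1299. CD68 held most of each sum, and the leukocyte marker PTPRC was listed at 0 in 3 libraries and at 0.0349 TPM in HCC827 siCTR.

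The first question is how strongly each line expresses the family. The 10 genes together took 0.395% of all TPM in HCC827 siCDH3, 0.378% in HCC827 siCTR, 0.125% in H1299 siCDH3 and 0.120% in H1299 siCTR. In HCC827, 9 of the 10 reached 5 TPM in each library, all but S100A4. In H1299, 5 of the 10 did so in each library, namely S100A2, S100A4, S100A10, S100A11 and S100A13. S100A6, S100A9 and S100A11 together made up 90.6% of the members' summed TPM in HCC827 siCDH3 and 89.0% in HCC827 siCTR. In H1299, S100A10 and S100A11 made up 92.5% of that sum with siCDH3 and 89.0% with siCTR. In such bulk libraries, fewer cells with a transcript and less of it per cell cannot be told apart. The stock of S100 transcripts was therefore concentrated in a few genes, and S100A11 was the one large component that the lines had in common.

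**Figure D1:**
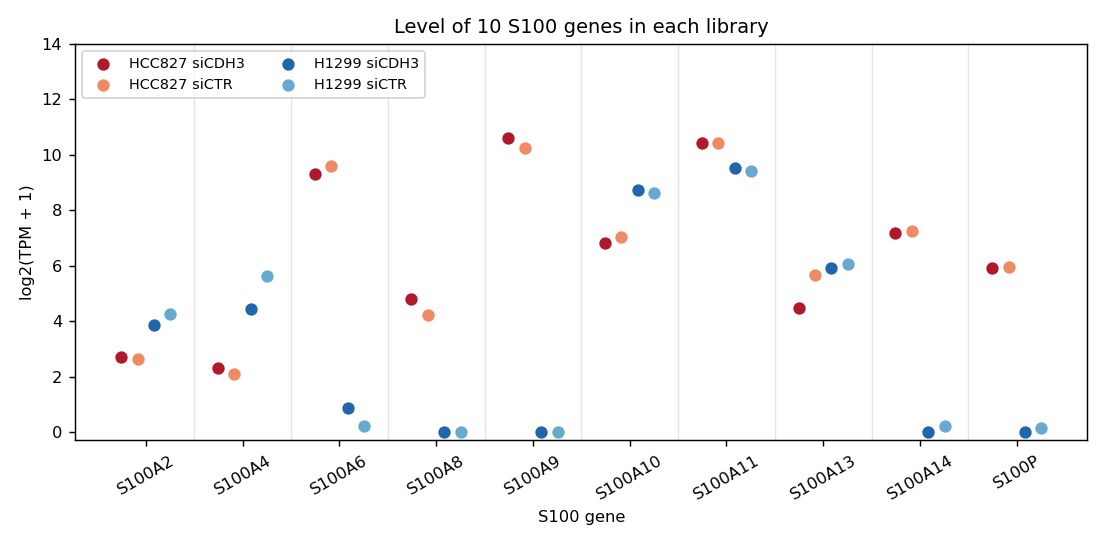
Level of the 10 S100 genes in each library, as log2(TPM + 1), 1 point per library and no error bar because each group has 1 library. S100A9, S100A6, S100A14, S100P and S100A8 sit between 4 and 11 in HCC827 and below 1 in H1299, while the points of S100A2, S100A4, S100A10 and S100A13 are higher in H1299.

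Differences between the lines were tested with limma on log2(TPM + 1), HCC827 over H1299 with the siRNA as a block, over 12941 genes with at least 5 TPM in at least 1 library. Each line has 2 libraries in this test, and these differ in siRNA, so the spread is how differently the lines responded and not a spread between cultures. S100A4, S100A6, S100A8, S100A9, S100A14 and S100P reached 5 TPM in 1 of the lines only. The filter that let these 6 in also fixed that they differed, so their levels are given as a description with no p-value. S100A2, S100A10, S100A11 and S100A13 reached 5 TPM in both lines and are the 4 for which the test bears on the difference. As a description, 6 of the 10 were higher and 4 lower in HCC827 at a Benjamini-Hochberg adjusted p under 0.05, where 62.9% of all genes tested passed, 21.5% higher and 41.3% lower. An unadjusted p under 0.05 was found for 67.3% of all genes. The libraries of the lines did not overlap for 83.4% of all genes, with HCC827 above for 30.4% and below for 52.9%, and nothing is read from the 10 genes' own count. Passing this test was therefore common. Between the control libraries, as a description that the filter shapes in the same way, 9 of the 10 genes differed at least 2-fold on the TPM + 1 scale, 6 higher and 3 lower in HCC827. Of 12601 genes compared there, 41.2% differed at least 2-fold, 13.5% higher and 27.8% lower, and 35.7% of all genes had a ratio above 0, beside 6 of the 10. All genes had a median of -0.39 on the log2 scale there. Centring on that median gave 2418 higher and 2300 lower genes, in place of 1695 and 3500. Mitochondrially encoded protein genes took 26.4% and 27.6% of TPM in the siCDH3 and siCTR libraries of HCC827, and 12.8% and 10.1% in those of H1299. With TPM rescaled over nuclear protein-coding genes, S100A2, S100A10 and S100A11 stayed called and S100A13 did not. For the 10 genes the median log2 ratio was 2.62, or 0.31 over the 8 genes with no library listed at 0 in the comparison.

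S100A8 and S100A9 form calprotectin, a heterodimer known best from neutrophils and inflamed epithelium. S100A9 had 1551 TPM in HCC827 siCDH3 and 1218 TPM in HCC827 siCTR, and was listed at 0 in both H1299 libraries. It ranked 66 and 74 among all genes in the siCDH3 and siCTR libraries of HCC827. S100A8 had 26.7 TPM in HCC827 siCDH3 and 17.7 TPM in HCC827 siCTR, and was also listed at 0 in both H1299 libraries. Both genes of the heterodimer were thus seen in the same line, but not at equal levels. On the TPM scale, which is per length, S100A9 stood 58.1 times above S100A8 in HCC827 siCDH3 and 68.7 times above it in HCC827 siCTR. No fold is given against values listed at 0. TLR4, a receptor for the released heterodimer, was listed at 0 in both HCC827 libraries, and had 0.0194 TPM in H1299 siCDH3 and 0.119 TPM in H1299 siCTR. AGER, which encodes the receptor RAGE, had 5.92 TPM in HCC827 siCDH3 and 5.83 in HCC827 siCTR, and 7.62 in H1299 siCDH3 and 4.59 in H1299 siCTR. AGER overlapped between the lines, with an adjusted p of 0.960 in limma for a difference of -0.01 on the log2 scale.

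S100A6 (calcyclin), which binds the ubiquitin ligase adaptor CACYBP, was high in one line and near absent from the other. It had 629 TPM in HCC827 siCDH3 and 783 TPM in HCC827 siCTR, against 0.815 TPM in H1299 siCDH3 and 0.160 TPM in H1299 siCTR. With H1299 values under 1 TPM, the size on the log2 scale depends on the pseudocount, at 8.92 with a pseudocount of 1, 10.49 with 0.1 and 7.01 with 5. CACYBP itself differed little, with 73.7 and 77.8 TPM in the siCDH3 and siCTR libraries of HCC827, and 95.2 and 72.3 TPM in those of H1299 (limma difference -0.13, adjusted p = 0.564). S100A6 was thus in excess of its partner's transcript in HCC827, at 8.53 and 10.1 times its TPM with siCDH3 and siCTR, and far below it in H1299.

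S100A14, an S100 protein of epithelial cells, and S100P, which binds ezrin and RAGE, followed the same split. S100A14 had 144.1 TPM in HCC827 siCDH3 and 150.1 TPM in HCC827 siCTR, while it was listed at 0 in H1299 siCDH3 and had 0.161 TPM in H1299 siCTR. S100P had 59.2 TPM in HCC827 siCDH3 and 61.3 TPM in HCC827 siCTR, while it was listed at 0 in H1299 siCDH3 and had 0.115 TPM in H1299 siCTR. Both genes were steady between the libraries of HCC827 and near absent from H1299. EZR, which encodes ezrin, ran the other way, with 144 and 138 TPM in the siCDH3 and siCTR libraries of HCC827 against 351 and 387 TPM in those of H1299 (limma difference -1.38, adjusted p = 0.0018). The S100P-binding protein gene S100PBP was also lower in HCC827, at 7.71 and 7.31 TPM with siCDH3 and siCTR, against 16.9 and 18.3 TPM in H1299 (limma difference -1.13, adjusted p = 0.0033).

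S100A10 and S100A11 are among the S100 proteins that bind annexins. S100A10 (p11), which pairs with annexin A2 and no longer binds calcium, had 112 TPM in HCC827 siCDH3 and 129 TPM in HCC827 siCTR, against 420 TPM in H1299 siCDH3 and 397 TPM in H1299 siCTR. It was lower in HCC827 by a limma difference of -1.76 ± 0.16 on the log2 scale (SE, adjusted p = 0.00092). S100A11, a partner of annexin A1, had 1393 TPM in HCC827 siCDH3 and 1360.4 TPM in HCC827 siCTR, against 740 TPM in H1299 siCDH3 and 674 TPM in H1299 siCTR. It was higher in HCC827 by 0.96 ± 0.15 on the log2 scale (SE, adjusted p = 0.0051), and it ranked 70 and 68 among all genes in the siCDH3 and siCTR libraries of HCC827, and 160 and 169 in those of H1299. ANXA1 was also higher in HCC827 (limma difference 1.23, adjusted p = 0.0022), while ANXA2 missed the threshold (limma difference -0.67, adjusted p = 0.080). The ratio to the annexin transcript varied less for S100A11 than for S100A10. The TPM of S100A11 was 1.80 times that of ANXA1 in HCC827 siCDH3 and 1.78 times in HCC827 siCTR, and 2.26 times in H1299 siCDH3 and 2.07 times in H1299 siCTR. The TPM of S100A10 was 0.119 and 0.219 times that of ANXA2 in the siCDH3 and siCTR libraries of HCC827, and 0.389 and 0.308 times in those of H1299.

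S100A4, S100A2 and S100A13 were lower in HCC827. S100A4 (metastasin), a binder of non-muscle myosin heavy chain that is common in mesenchymal cells, had 3.95 TPM in HCC827 siCDH3 and 3.29 TPM in HCC827 siCTR, against 20.4 TPM in H1299 siCDH3 and 48.9 TPM in H1299 siCTR. S100A2, known from basal keratinocytes, had 5.57 TPM in HCC827 siCDH3 and 5.16 TPM in HCC827 siCTR, against 13.5 TPM in H1299 siCDH3 and 18.1 TPM in H1299 siCTR (limma difference -1.39 ± 0.19, SE, adjusted p = 0.0031). MYH9, the myosin that S100A4 binds, was lower in HCC827 too, at 161 and 165 TPM with siCDH3 and siCTR against 320 and 349 TPM in H1299 (limma difference -1.03, adjusted p = 0.0040). S100A13, which helps export FGF1 from cells, had 21.4 TPM in HCC827 siCDH3 and 49.5 TPM in HCC827 siCTR, against 59.1 TPM in H1299 siCDH3 and 65.3 TPM in H1299 siCTR. Its limma difference was -0.91 ± 0.28 (SE, adjusted p = 0.042). That call ended in 5 of 8 alternative settings, with an adjusted p of 0.111 once the median of each library was set to 0. Relative to the median of all genes the control libraries did not differ in S100A13, at 0.00 on the log2 scale.

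The remaining 11 genes of the family in the table were then compared with the 10. Of these, 4 reached 5 TPM in some library, and only S100A16 did so in both lines. In limma 2 of the 4 were higher and 2 lower in HCC827, beside 21.5% and 41.3% of all genes. Nothing is read from this count, because S100A7, S100A1 and S100A3 reached 5 TPM in 1 line only. S100A7 (psoriasin) had 48.9 TPM in HCC827 siCDH3 and 39.7 TPM in HCC827 siCTR and was listed at 0 in both H1299 libraries. S100A16 had 101 TPM in HCC827 siCDH3 and 78.4 TPM in HCC827 siCTR, against 9.98 TPM in H1299 siCDH3 and 9.80 TPM in H1299 siCTR (limma difference 3.05, adjusted p = 0.00020). S100A1, known from heart and skeletal muscle, had 1.02 and 1.24 TPM in the siCDH3 and siCTR libraries of HCC827, against 13.6 and 11.9 TPM in those of H1299. S100A3 had 0.928 and 0.810 TPM in HCC827 against 5.72 and 4.58 TPM in H1299, siCDH3 first. S100A7L2, S100B, S100G and S100Z were listed at 0 in all 4 libraries, and S100A5, S100A7A and S100A12 stayed under 5 TPM. So 14 of 21 family genes reached 5 TPM in at least 1 library. S100A2, S100A10, S100A11, S100A13 and S100A16 did so in both lines, and the others of the 14 in 1 line only.

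Of the 21 genes, 17 lie on chromosome 1 in GENCODE release 29, 9 of the 10 among them, while S100P lies on chromosome 4. In their order along the chromosome, S100A10 and S100A11 come first, side by side and in opposite directions, S100A10 lower and S100A11 higher in HCC827. They are separated by 47 other protein-coding genes from the next, S100A9. From S100A9 to S100A1 no protein-coding gene outside the family lies between neighbours. Among those that reached 5 TPM, S100A9, S100A8, S100A7 and S100A6 were all higher in HCC827. S100A4, S100A3 and S100A2, which follow S100A6 and the low S100A5, were all lower in HCC827. S100A16 and S100A14 come next and were higher in HCC827, and S100A13 and S100A1 at the end were lower. This order was not tested and describes 1 pair of lines. Most of these genes reached 5 TPM in only one of the lines, the direction of S100A13 between the control libraries depended on the scaling, and some neighbours share reads. S100A3 overlaps S100A4 on the same strand and S100A1 overlaps S100A13 on the other strand, and the strandedness of the libraries is not given in the sources used here, so the TPM of these pairs is uncertain.

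**Figure D2:**
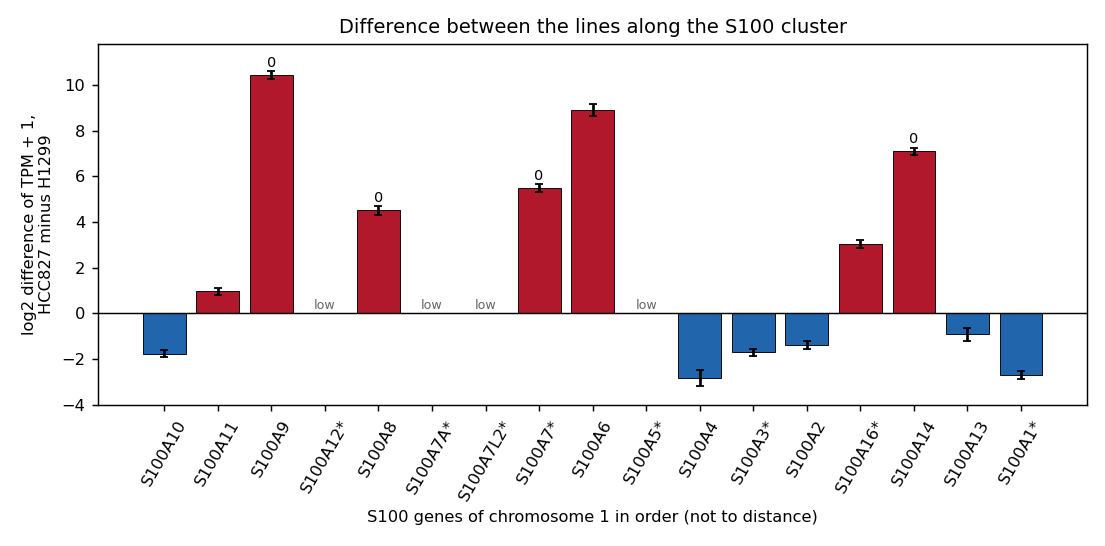
Difference between the lines (log2(TPM + 1), HCC827 minus H1299, limma estimate with its SE as bars) for the S100 genes of chromosome 1 in their order, not to distance. Asterisks mark family genes outside the 10, "low" marks genes under 5 TPM in every library, and "0" marks genes listed at 0 in at least 1 H1299 library, whose height depends on the pseudocount of 1. Red bars (higher in HCC827) run from S100A9 to S100A6, blue bars from S100A4 to S100A2, red bars over S100A16 and S100A14, and blue bars over S100A13 and S100A1.

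The family was set against the state markers of the lines. In HCC827 all 10 epithelial markers of the list reached 5 TPM in each library, and they summed to 4811 TPM in HCC827 siCDH3 and 5209 TPM in HCC827 siCTR, against 720.2 TPM in H1299 siCDH3 and 683 TPM in H1299 siCTR. The 8 mesenchymal markers summed to 131.8 and 111.6 TPM in the siCDH3 and siCTR libraries of HCC827, against 5560.0 and 5729 TPM in those of H1299, where vimentin (VIM) made up most of the sum. ZEB1, a repressor of epithelial genes that binds E-boxes such as CACCTG, had 0.276 and 0.250 TPM in the siCDH3 and siCTR libraries of HCC827, and 20.6 and 34.7 TPM in those of H1299. Not every marker followed this split. Of the epithelial markers, 5 also reached 5 TPM in each H1299 library, KRT8 and KRT18 among them. FN1 made up most of the mesenchymal sum in HCC827, at 118.9 TPM with siCDH3 and 96.8 TPM with siCTR. In H1299 it had 88.1 and 119.4 TPM, so the lines overlapped (limma difference 0.06, adjusted p = 0.817). SNAI2 stayed under 5 TPM in all libraries. The part of these state genes in the S100 differences was not tested. Of 12 squamous and basal keratinocyte markers, SPRR1B, SPRR2A and PI3 reached 5 TPM, in HCC827 alone, while KRT5 and KRT6B were listed at 0 in both HCC827 libraries.

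Of 22 fixed binding partners and receptors, 19 could be tested between the lines. In limma 5 were higher and 8 lower in HCC827, beside 21.5% and 41.3% of all genes. Nothing is read from this count, because ANXA6 and PLAT reached 5 TPM in H1299 only. The median log2 difference of the 19 was -0.60, where the median of all genes was -0.31. Among those higher in HCC827 was the receptor gene ERBB2, at 73.2 and 74.4 TPM in the siCDH3 and siCTR libraries of HCC827 against 25.2 and 21.5 TPM in those of H1299. The lowest was ANXA6, a calcium-dependent membrane binder, with 0.128 and 0.288 TPM in the siCDH3 and siCTR libraries of HCC827 and 233 and 215 TPM in those of H1299. BSG, a receptor for S100A9, had 305 and 273 TPM in HCC827 and 1233 and 1179 TPM in H1299, siCDH3 first. The line with S100A9 transcript was therefore the one with less BSG, by a limma difference of -2.06 (adjusted p = 0.00044). FGF1, the cargo of S100A13, had 0.251 and 0.226 TPM in the siCDH3 and siCTR libraries of HCC827, and 0.162 and 0.230 TPM in those of H1299.

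**Figure D3:**
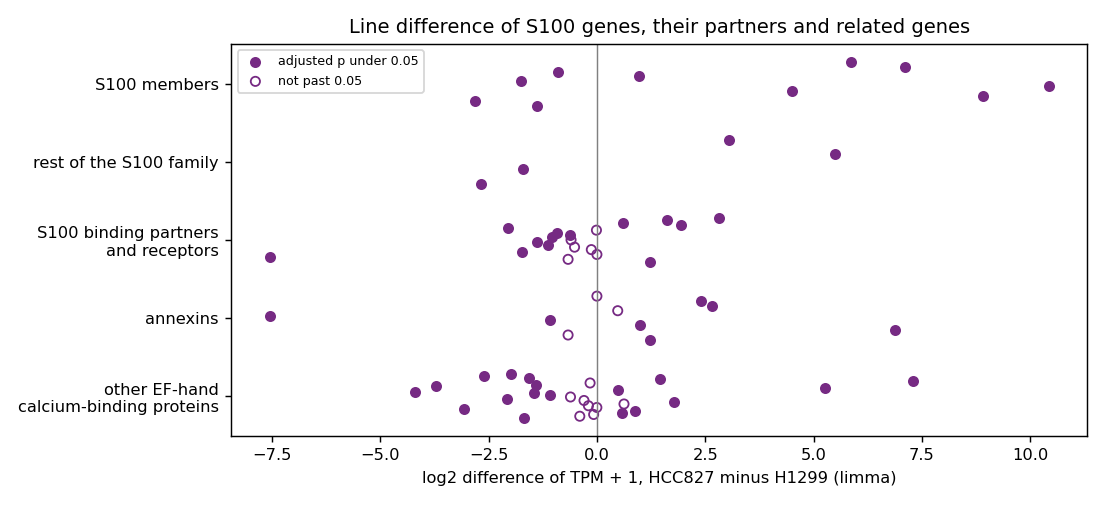
limma difference between the lines in log2(TPM + 1), HCC827 minus H1299, with 1 point per gene for the 10 S100 genes and 4 related lists (genes at 5 TPM or more in a library). Filled points have an adjusted p under 0.05, and genes high in one line only are far from 0, so their points are a description. The S100 points run from -2.83 for S100A4 to 10.43 for S100A9.

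The second question is what silencing CDH3 did to the family within each line. Each group is 1 library, so these differences lack any replicate check and have no p-value. In HCC827, 9 of the 10 genes reached 5 TPM with either siRNA and could be compared. None was at least 2-fold higher with siCDH3 and 1, S100A13, was at least 2-fold lower. Among 11043 genes compared in HCC827, 1.84% differed at least 2-fold, 1.01% higher and 0.833% lower. A ratio above 0 was found for 4 of the 9, beside 57.1% of all genes. In H1299, 5 of the 10 passed the filter, and of these 0 were at least 2-fold higher and 1, S100A4, at least 2-fold lower. Among 11622 genes compared in H1299, 2.46% differed at least 2-fold, 0.878% higher and 1.58% lower. A ratio above 0 was found for 2 of the 5, beside 35.2% of all genes. The median log2 ratio of the genes that passed was -0.05 in HCC827, beside 0.03 for all genes, and -0.14 in H1299, beside -0.11 for all genes. In H1299 the genes past 2-fold split into 102 higher and 184 lower with siCDH3, and into 140 higher and 134 lower once the median of all genes was set to 0. The S100 genes that passed the filter thus differed less than 2-fold from the control library, with 1 exception in each line. Without replicates this does not show that their levels were unchanged.

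The exception in HCC827 was S100A13, with 21.4 TPM in siCDH3 and 49.5 TPM in siCTR. It stood at 43.3% of its control level, a log2 ratio of -1.17 (-1.20 relative to all genes), and 0.534% of genes tested in HCC827 had a lower ratio. In H1299 the same gene had 59.1 TPM in siCDH3 and 65.3 TPM in siCTR, a log2 ratio of -0.14 (-0.03 relative to all genes). S100A13 overlaps a non-coding transcript on its own strand, AL162258.1, which had 25.5 TPM in HCC827 siCDH3 and 22.7 TPM in HCC827 siCTR. The split of reads between overlapping genes is uncertain. S100A13 and AL162258.1 summed to 46.9 TPM in HCC827 siCDH3 and 72.2 TPM in HCC827 siCTR. That is 65.0% of the control level and short of a 2-fold difference. With S100A1, which overlaps on the other strand, S100A13 summed to 22.4 TPM in HCC827 siCDH3 and 50.7 TPM in HCC827 siCTR. That sum stood at 44.3% of the control level, past a 2-fold difference.

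The exception in H1299 was S100A4, with 20.4 TPM in siCDH3 and 48.9 TPM in siCTR. It stood at 41.8% of its control level, a log2 ratio of -1.22 (-1.11 relative to all genes), and 0.912% of genes tested in H1299 had a lower ratio. Its rank among all genes was 5981 in H1299 siCDH3 and 3157 in H1299 siCTR. The overlapping gene S100A3 had 5.72 TPM in H1299 siCDH3 and 4.58 TPM in H1299 siCTR, and the pair summed to 26.1 and 53.4 TPM, which left 48.9% of the control level. In HCC827, S100A4 was below 5 TPM in both libraries, at 3.95 TPM with siCDH3 and 3.29 TPM with siCTR, so its low level there sets no comparison. MYH9 had 320 TPM in H1299 siCDH3 and 349 TPM in H1299 siCTR, a log2 ratio of -0.12, near that of all genes.

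Smaller differences had no consistent direction over the family. In HCC827, S100A8 stood at 150.5% and S100A9 at 127% of their control levels (log2 ratios 0.56 and 0.35), and the neighbouring S100A7 had a log2 ratio of 0.29. S100A8 was higher than 96.3% and S100A9 than 91.1% of genes tested in HCC827, so both lay inside the central 95% of all genes, which ran from -0.59 to 0.67. S100A6 stood at 80.3% of its control level in HCC827 (log2 ratio -0.32) and S100A10 at 86.6% (-0.21). S100A14 and S100P stood at 96.1% and 96.6% in that line, and S100A11 at 102%, a value that was at -0.01 on the log2 scale with TPM over nuclear protein-coding genes and at -0.02 with quantile normalization. In H1299, S100A2 stood at 74.8% of its control level (-0.39, or -0.29 relative to all genes), S100A10 at 106% (0.08, or 0.19 relative to all genes) and S100A11 at 109.7% (0.13, or 0.24 relative to all genes). The other 5 genes were under 5 TPM in both H1299 libraries, S100A6 among them with 0.815 TPM in siCDH3 and 0.160 TPM in siCTR.

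**Figure D4:**
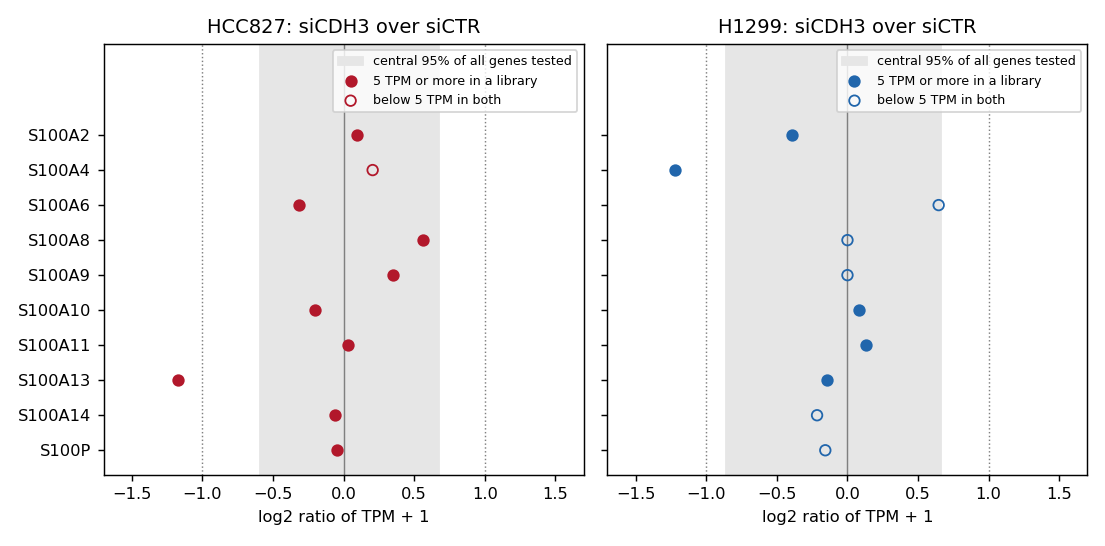
Log2 ratio of TPM + 1, siCDH3 over siCTR, for the 10 S100 genes in HCC827 and H1299, with 1 pair of libraries per line and no error bar. The grey band is the central 95% of all genes tested in the line, dotted lines mark 2-fold, and open points are genes under 5 TPM in both libraries. S100A13 in HCC827 (-1.17) and S100A4 in H1299 (-1.22) lie outside the band.

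Taking the lines as the units of replication, limma was fitted for the siRNA with the cell line as a block. None of the 10 genes passed at an adjusted p under 0.05, and none had an unadjusted p under 0.05. Over all 12941 genes, 0.00773% passed, which is 1 gene, and 4.49% had an unadjusted p under 0.05. The lowest unadjusted p of the family was 0.070 for S100A13, with a log2 difference of -0.66 ± 0.28 (SE, adjusted p = 0.950). S100A13 had a lower value with siCDH3 in 2 of 2 lines, but in H1299 its log2 ratio was only -0.14, or -0.03 relative to all genes. S100A4 had -0.51 ± 0.36 (SE, adjusted p = 0.950). With 2 lines and 1 residual degree of freedom per gene, a p that misses the threshold does not show that the levels were equal. CDH3 had 1.21 TPM in H1299 siCTR against 172.7 TPM in HCC827 siCTR, so the lines were unequal as replicates of its silencing.

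Of the 22 binding partners and receptors, 17 passed the filter in HCC827 and 19 in H1299. In either line 0 differed at least 2-fold, beside 1.84% of all genes in HCC827 and 2.46% in H1299. Nothing is read from a count of 0 in so short a list. Their median log2 ratio was 0.02 in HCC827, beside 0.03 for all genes, and -0.03 in H1299, beside -0.11 for all genes. The highest in HCC827 was ANXA2, with 939 TPM in siCDH3 and 587 TPM in siCTR (log2 ratio 0.68), and IQGAP1 had 0.21. The lowest there were SYT1 at -0.21 and SUGT1 at -0.18. In H1299 the highest were SUGT1 at 0.73 and AGER at 0.62, and the lowest IQGAP1 at -0.66 and ALCAM at -0.46. IQGAP1, a scaffold that binds several S100 proteins, and ANXA2 (-0.26 in H1299) thus had opposite signs in the lines.

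Genes whose level was most like that of an S100 gene over the 4 libraries were sought by the root mean square difference of log2(TPM + 1). Nearest to S100A9 were CXCL5, a neutrophil chemokine gene (0.43), and DEFB4A, an antimicrobial defensin gene (0.60). CXCL5 had 1029.8 TPM in HCC827 siCDH3 and 784 TPM in HCC827 siCTR and was listed at 0 in both H1299 libraries. Nearest to S100A6 were the complement factor B gene CFB (0.29) and PDZK1IP1 (0.47). Nearest to S100A11 was TMSB4X, which encodes the actin-binding thymosin beta 4 (0.23). These genes share the 4 libraries with the S100 genes.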

How the data were processed

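RNA sequencing was done on 4 libraries, 1 per cell line and siRNA. The authors deposited gene-level TPM values (scaled for gene length and library) with 1 column per library, and the genome build is hg19 per the submitters' processing notes. No source used here gives the aligner, the counter or the strandedness. TPM keeps no depth, so no counting interval can be given. Columns were matched to libraries through the labels, and 0 other columns of values were left aside.

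Log2 ratios were taken of TPM + 1 for genes with at least 5 TPM in a library of the comparison, and a ratio on this scale understates the change of low genes. The linear model of limma 3.58.1, run in R 4.3.3, took log2(TPM + 1) with cell line and siRNA as terms, and Benjamini-Hochberg adjustment ran over all 12941 genes. The libraries are paired by the cell line that the labels name. The labels name no separate cultures, so the p-values measure only the spread between these libraries. The script was tested on simulated data, in which 100% of genes changed 2-fold in both lines were recovered over 12941 genes, with 15 false calls beside 200 changed genes. The simulated noise had the same spread for every gene, whereas the spread in these data differs from gene to gene. That recovery therefore does not carry over to these data, and a gene that was not called may still differ 2-fold. The chosen genes and lists, 75 list entries and 64 markers that were all matched, were fixed with earlier results of these data known. Named are the 10 genes, family genes at 5 TPM or more, CDH3, the 2 highest and 2 lowest genes of each other list, and the 2 nearest genes by likeness, and some of these are not reported here. Other list members, partners and overlapping genes named beside an S100 gene were chosen after their values were seen. Upstream sequences are from RefSeq (GRCh38.p14), and gene order and overlaps are from GENCODE release 29. Both are on a later build than the table, so genes were matched by name or identifier. Alternatives were pseudocounts of 0.1 and 5, filters, a 1.5-fold rule, centring, TPM rescaled over nuclear protein-coding genes (this also drops ribosomal protein genes), quantile normalization, a limma trend and a fit without the block.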

Additional observations from a re-analysis of the deposited data

Results flagged for a closer look

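S100A2 and S100A10 had opposite directions in the lines with siCDH3 against siCTR. S100A2 had a log2 ratio of 0.0919 in HCC827 and -0.39 in H1299, and S100A10 had -0.21 in HCC827 and 0.0803 in H1299. Each value comes from 1 pair of libraries, and the difference between the lines was not tested.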

How the results depend on the processing

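The counts of S100 genes past the size rule, 1 in HCC827, 1 in H1299 and 9 between the control libraries, stayed within 1.5 times under each of the 8 alternatives, as did the 10 called between the lines in limma and the 0 called for the siRNA. The count of all genes past the size rule, 203 in HCC827 and 286 in H1299, moved to 99 and 138 with a pseudocount of 5, to 373 and 536 with a filter at TPM 1 or no filter, and to 650 and 1199 with the 1.5-fold rule. The 1 gene that limma called for the siRNA was lost (0 genes) with TPM over nuclear protein-coding genes, with quantile normalization and with no replicate block, that is with the pairing by cell line left out. The limma estimate of S100A6 for the siRNA, 0.17, was -0.0706 with a pseudocount of 5. Its log2 ratio with a pseudocount of 1 was -0.32 in HCC827 and 0.65 in H1299, where both libraries were under 1 TPM. The cause of the change in sign was not tested. The line difference of S100A13 missed the threshold with a pseudocount of 0.1 (adjusted p = 0.0695), TPM over nuclear protein-coding genes (0.226, with the control libraries at 0.06 on the log2 scale), centring (0.111), quantile normalization (0.135) and no replicate block (0.109). The line differences of S100A2, S100A10 and S100A11 kept their call and sign in each of the 8 limma alternatives. No library could be left out, since a group holds 1 library and the fit has 1 residual degree of freedom. Depth is unknown, so the precision of values under 1 TPM cannot be stated.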

Other observations

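Other calcium-binding families were compared between the lines, where 21.5% of all genes were higher and 41.3% lower in HCC827 in limma. Of 10 annexins tested, 5 were higher and 2 lower in HCC827, and nothing is read from this count because ANXA3, ANXA6, ANXA8 and ANXA8L1 reached 5 TPM in one line only. ANXA3 had 153 TPM in HCC827 siCDH3 and 155 TPM in HCC827 siCTR, against 0.170 TPM in H1299 siCDH3 and 0.495 TPM in H1299 siCTR, and ANXA6 ran the other way as given above. Of 26 other EF-hand proteins tested, 7 were higher and 11 lower in HCC827. Nothing is read from this count either, because LCP1 and CALB1 reached 5 TPM in HCC827 only, and EFHD1, CALB2 and SPARC in H1299 only. The actin-bundling gene LCP1 had 159 TPM in HCC827 siCDH3 and 155 TPM in HCC827 siCTR, and calbindin (CALB1) had 37.6 and 36.9 TPM, while both were listed at 0 in the H1299 libraries. EFHD1 and calretinin (CALB2) were lower in HCC827, EFHD1 at 0.360 and 0.397 TPM with siCDH3 and siCTR against 24.9 and 23.6 TPM in H1299.

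With siCDH3, 1 of 24 EF-hand genes compared in H1299 differed at least 2-fold, near the 2.46% of all genes. It was the calmodulin gene CALM3, with 90.2 TPM in siCDH3 and 235 TPM in siCTR, a log2 ratio of -1.37. In HCC827, 0 of 23 did so, beside 1.84% of all genes.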
